A study of Saccharomyces cerevisiae with 4 samples.

Results

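The comparison described here sets the hsp30Δ-labelled 30 °C array against the array labelled BY4741 30 °C, 2 of the 4 Affymetrix arrays of a budding yeast series. The strain labelled hsp30Δ is BY4741 with HSP30 replaced by the kanMX cassette. BY4741 is a laboratory strain of mating type a that carries his3Δ1, leu2Δ0, met15Δ0 and ura3Δ0, and both strains share these alleles. Cells of both strains were growing exponentially at 30 °C. The other pair, used only to see which differences recur, holds the same strains after 30 min at 40 °C, again with the hsp30Δ-labelled 40 °C array set against BY4741 40 °C. There is 1 array in each group, so every value is a size with no test, and how far a second culture would differ is not known. Every gene was taken, with the probe set that had the highest mean over the 4 arrays where a gene had several. This gave 5430 genes with a level above background on at least 1 array.

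HSP30 codes for a stress-induced plasma membrane protein, known as a brake on the proton pump Pma1. Yeast growing fast on glucose spends much of its transcription on ribosomal proteins and on the factors that build ribosomes. Genes for using other carbon sources, for respiration and for storage carbohydrates are held low by glucose repression and by the Ras and protein kinase A pathway, and come on when glucose signalling drops.

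The targeted gene was read first. HSP30 was at 15.18 log2 units on the hsp30Δ-labelled 30 °C array, against 15.51 on BY4741 30 °C, and at 15.91 and 14.18 on the 40 °C arrays labelled hsp30Δ and BY4741. A strong HSP30 signal was thus present on both arrays that carry the deletion label, where a probe outside the deleted part would check nothing, and where the probes lie was not checked here. For this reason each strain direction below is that of the array's label, and "on hsp30Δ" means on the array so labelled. MET17, the current name of MET15, which both strains lack, was at 1.95 on all 4 arrays, the lowest value in the table. HIS3 was at 9.95 on the hsp30Δ-labelled array, against 12.36 on BY4741, and LEU2 and URA3 were not analysed here. The a-cell markers were bright on both 30 °C arrays: the pheromone genes MFA1 and MFA2, the receptor gene STE2, the protease gene BAR1 and the agglutinin gene AGA2 lay between 12.23 and 13.90 on the hsp30Δ-labelled array, and between 13.82 and 14.80 on BY4741. The alpha pheromone genes MF(ALPHA)1 and MF(ALPHA)2 were near the floor, at 3.56 and 3.83 on the hsp30Δ-labelled array, against 3.54 and 4.07 on BY4741. The other alpha markers were not: STE3 was at 8.41 on the hsp30Δ-labelled array, against 7.12 on BY4741, and SAG1 at 10.86 on hsp30Δ against 9.61 on BY4741.

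BY4741 30 °C stood apart from the other arrays. It lay at least 2-fold above or below the range of the other 3 arrays for 1446 genes (26.6%), while the hsp30Δ-labelled 30 °C array did so for 58 genes (1.07%), the one labelled hsp30Δ 40 °C for 26 and BY4741 40 °C for 108. Every 30 °C strain difference rests on that BY4741 array, and whether its distance comes from the strain, the culture or the hybridisation cannot be told apart with 1 array a group. The strain difference at 40 °C, which shares no array with the 30 °C one, is therefore given beside the main results. Array medians lay between 11.12 and 11.19, and the brightest probe set between 16.01 and 16.19. The array also carries probe sets for fission yeast, of which the highest reached 2.84, so no fold is given for a gene at or below that level on one of the arrays compared.

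The strain labels differed widely at 30 °C. On the hsp30Δ-labelled array, 1262 genes (23.2%) were higher by 2-fold or more and 1160 (21.4%) lower by 2-fold or more than on BY4741, together 2422 genes, or 44.6% of those compared. By any amount, 2907 genes (53.5%) were higher and 2513 (46.3%) lower, with a median difference of 0.11 log2 units and an SD over genes of 1.59. At 4-fold the counts were close, 471 genes (8.67%) higher and 461 (8.49%) lower. They drew apart at larger sizes: 207 (3.81%) were higher by 8-fold or more and 157 (2.89%) lower, 95 (1.75%) higher by 16-fold or more and 53 (0.976%) lower, and 46 (0.847%) higher by 32-fold or more and 7 (0.129%) lower. The balance of the 2-fold counts depended on the scaling: 52.1% of these genes were higher with the deposited values, 49.9% after quantile normalization, 50.6% after median centring and 48.1% after lowess centring. Single sizes depended on it as well, chiefly for genes dim on an array: of 419 named genes 52 moved by more than 1.5-fold after quantile normalization and 42 after lowess centring. At 40 °C the strain labels were closer, with 364 genes (6.7%) higher by 2-fold or more and 195 (3.59%) lower on the hsp30Δ-labelled array, a median of 0.00 and an SD of 0.75.

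**Figure D1:**
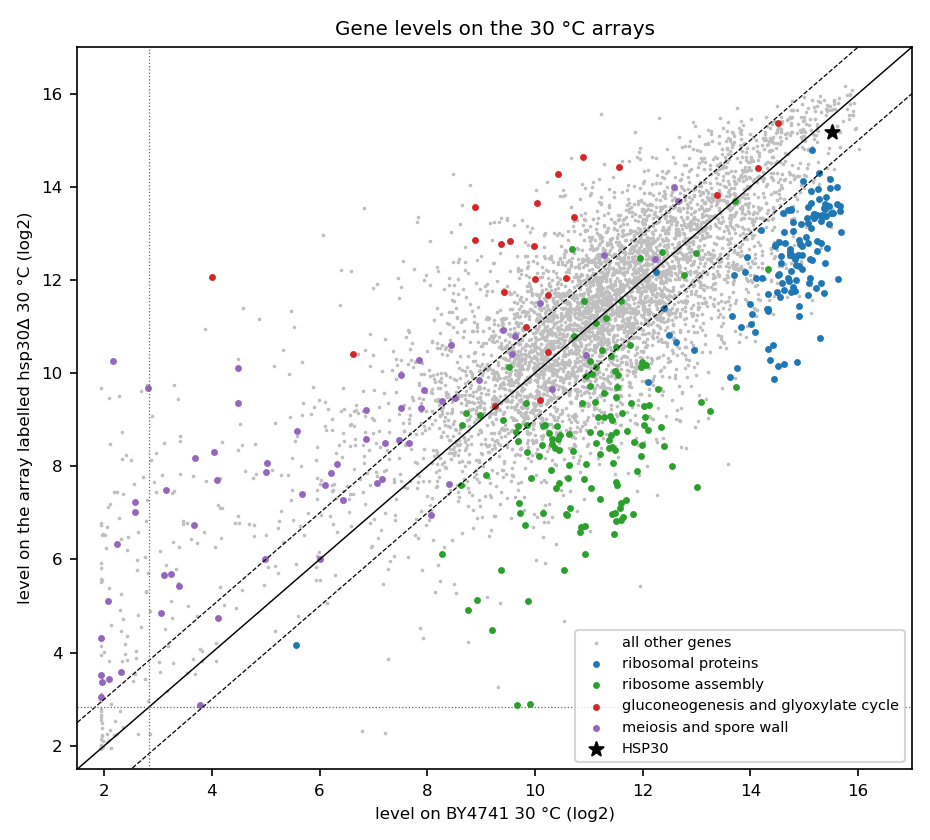
Level of each gene (log2) on the hsp30Δ-labelled 30 °C array (y axis) and on BY4741 30 °C (x axis). The solid line marks equal levels, the dashed lines 2-fold, and the dotted lines the highest fission yeast probe set (2.84). Ribosomal protein genes (blue) lie to the right, below the lower dashed line with few exceptions, ribosome assembly genes (green) lie mostly below it at middle levels, gluconeogenesis genes (red) and meiosis genes (purple) lie mostly above the upper one, and HSP30 (star) lies near the solid line at 15.18 and 15.51.

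Genes for building ribosomes made up a large block of the lower genes. Of 62 genes of the small-subunit processome and 40S assembly, 53 were lower by 2-fold or more on the hsp30Δ-labelled 30 °C array and 1 was higher (median -2.16), against 21.4% lower and a median of 0.11 over all genes. Of 73 genes of 60S assembly and export, 59 were lower and 0 higher (median -2.74). KRE33, the acetyltransferase of the small-subunit rRNA, was at 6.54 on the hsp30Δ-labelled array, against 11.47 on BY4741, 30.4-fold lower. UTP8, a processome subunit, was 27.8-fold lower (6.12 on hsp30Δ against 10.92 on BY4741), and NSA2, a 60S assembly factor, 43.7-fold lower (7.56 on hsp30Δ against 13.01 on BY4741). YVH1, the phosphatase that acts late on the 60S particle, was at 2.89 on hsp30Δ against 9.92 on BY4741, and RIX1, of a pre-60S complex, at 2.88 on hsp30Δ against 9.66 on BY4741. Both were just above the highest fission yeast probe set on the hsp30Δ-labelled array, so their fold is not exact. RIO1, a kinase of late 40S maturation, went the other way, at 12.67 on the hsp30Δ-labelled array, against 10.69 on BY4741. At 40 °C the list medians of the strain difference were 0.15 and -0.09, and KRE33 was at 7.17 on the hsp30Δ-labelled array, against 7.24 on BY4741. BY4741 30 °C was the array outside the other 3 for 53 of the 62 and 56 of the 73 genes.

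Ribosomal protein genes were lower almost throughout. Of 75 measured large-subunit genes 74 were lower by 2-fold or more on the hsp30Δ-labelled array (median -2.29), and of 52 small-subunit genes 49 (median -2.07). Their median levels were 12.51 and 12.65 on the hsp30Δ-labelled array, against 14.85 and 14.91 on BY4741. RPS0B, of the small subunit, was at 10.23 on hsp30Δ against 14.86 on BY4741 (24.7-fold lower), RPS9B at 10.74 on hsp30Δ against 15.30 on BY4741 and RPL22A, of the large subunit, at 10.15 on hsp30Δ against 14.51 on BY4741. The exceptions were RPL15B (12.16 on hsp30Δ against 12.25 on BY4741), RPS23A (14.79 on hsp30Δ against 15.15 on BY4741), RPS30A (14.12 on hsp30Δ against 14.98 on BY4741) and RPS12 (14.30 on hsp30Δ against 15.27 on BY4741), each lower by less than 2-fold. Many of these genes have a near-identical copy: 13 large-subunit and 13 small-subunit genes were read from probe sets whose name marks sequence shared with other genes, so that copies may not be told apart there. The 40 °C medians were -0.23 and -0.27. The nuclear genes for mitochondrial ribosomal proteins did not share the difference: of 69, 3 were higher by 2-fold or more and 2 lower. Their median was 0.01, and its sign turned under each of the 3 other scalings. At 40 °C their median was -0.53, with 10 genes lower and 0 higher.

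Several subunit genes of RNA polymerase I, which transcribes the large rRNA, were lower. RPA190, the largest subunit, was at 9.09 on the hsp30Δ-labelled array, against 12.44 on BY4741 (10.2-fold lower), RPA43 at 6.61 on hsp30Δ against 11.02 on BY4741 and RPA49 at 7.28 on hsp30Δ against 11.67 on BY4741. Over 38 genes of RNA polymerases I and III and their factors, 13 were lower by 2-fold or more and 3 higher (median -0.33), and 15 of the 38 were higher by any amount. RPA14, another polymerase I subunit gene, had a difference of 0.75. RRN6 and RRN7, of the core factor that recruits polymerase I, were among the higher ones, by 1.44 and 1.67 log2 units.

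The genes that charge and modify tRNA and that start translation were lower as well. Of 19 cytosolic tRNA synthetases 18 were lower by 2-fold or more, with a median of -2.21 at 30 °C and 0.38 at 40 °C. KRS1, the lysine enzyme, was at 11.28 on the hsp30Δ-labelled array, against 14.43 on BY4741, and WRS1, the tryptophan enzyme, at 9.73 on hsp30Δ against 12.91 on BY4741. Of 39 tRNA modification genes 22 were lower and 2 higher (median -1.69). TRM11, a tRNA guanosine methyltransferase subunit, was at 3.27 on hsp30Δ against 9.31 on BY4741, and NCL1, a tRNA cytosine methyltransferase, at 8.41 on hsp30Δ against 12.71 on BY4741. TAD2, which codes for a subunit of the wobble adenosine deaminase, stood out of this list in the other direction, at 13.60 on the hsp30Δ-labelled array, against 8.64 on BY4741. Among 35 translation factors 21 were lower and 1 higher (median -1.28). TIF3, the eIF4B gene, was at 8.98 on hsp30Δ against 12.69 on BY4741 and YEF3, elongation factor 3, at 12.68 on hsp30Δ against 15.30 on BY4741. The single higher factor was HEF3, a copy of elongation factor 3, at 12.37 on hsp30Δ against 9.23 on BY4741. Of 35 genes of purine and pyrimidine synthesis 26 were lower and 2 higher (median -1.69). AAH1, adenine deaminase, was at 5.44 on the hsp30Δ-labelled array, against 11.95 on BY4741 (91.3-fold lower), and URA7, CTP synthase, at 8.61 on hsp30Δ against 12.38 on BY4741.

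**Figure D2:**
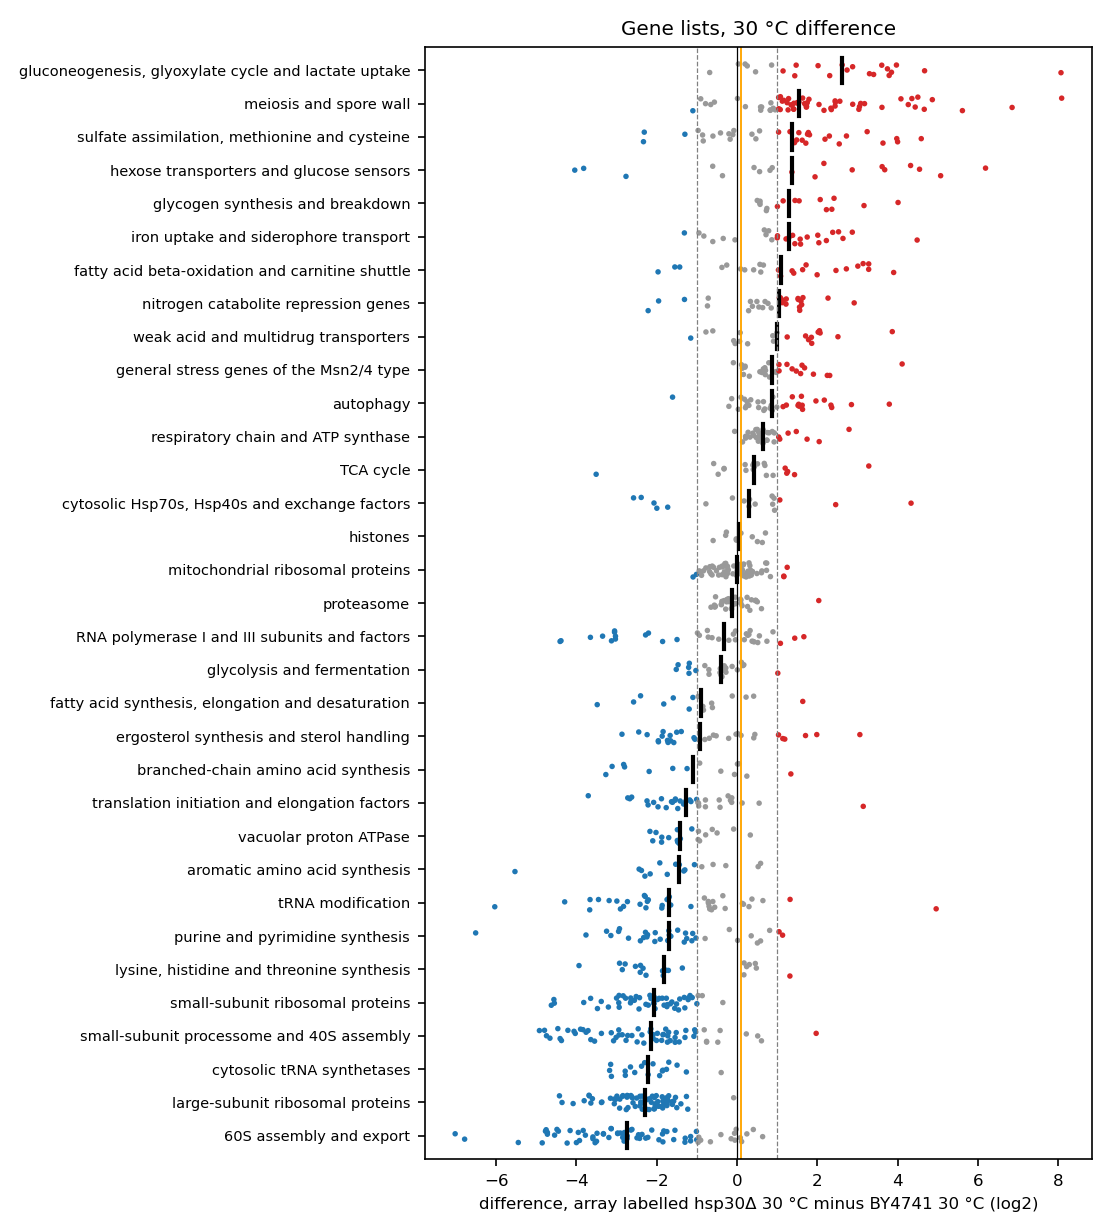
Difference between the hsp30Δ-labelled 30 °C array and BY4741 30 °C (log2, x axis) for each measured gene of selected lists (rows, sorted by median). Red and blue points are higher by 2-fold or more and lower, black bars are list medians, dashed lines mark 2-fold and the orange line is the median of all genes (0.11). The 60S assembly, ribosomal protein and tRNA synthetase lists lie furthest left, with medians from -2.74 to -2.07, and the gluconeogenesis list furthest right, at 2.62.

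Genes for using carbon sources other than glucose were higher. In the list of gluconeogenesis, the glyoxylate cycle and lactate uptake, 17 of 23 genes were higher by 2-fold or more on the hsp30Δ-labelled array and 0 lower (median 2.62), against 23.2% higher over all genes. SIP4, an activator of gluconeogenic genes, had the largest difference of all genes readable on both arrays, 12.07 on the hsp30Δ-labelled array, against 3.99 on BY4741, 269-fold. Because SIP4 was dim on BY4741, its difference of 8.07 depended on the scaling and was 6.39 after quantile normalization. CAT8, a related activator, was at 14.27 on hsp30Δ against 10.42 on BY4741 (14.4-fold). The lactate permease gene JEN1 was at 13.56 on hsp30Δ against 8.89 on BY4741 (25.5-fold), IDP2, the cytosolic isocitrate dehydrogenase, at 12.87 on hsp30Δ against 8.89 on BY4741, and SFC1, the succinate and fumarate carrier of mitochondria, at 10.40 on hsp30Δ against 6.61 on BY4741. ADH2, the glucose-repressed alcohol dehydrogenase, was the single lower gene, at 9.41 on hsp30Δ against 10.09 on BY4741. The 40 °C pair ran against this: the list median was -0.59 there, with 2 genes higher by 2-fold or more and 8 lower. JEN1 was at 12.20 on the hsp30Δ-labelled 40 °C array, against 13.80 on BY4741 40 °C, and SFC1 at 7.93 on hsp30Δ against 10.71 on BY4741.

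Fatty acid oxidation genes were higher as well. Of 25 genes of beta-oxidation and the carnitine shuttle 14 were higher by 2-fold or more and 3 lower (median 1.09, and -0.43 at 40 °C). The peroxisomal catalase gene CTA1 was at 10.84 on the hsp30Δ-labelled array, against 6.93 on BY4741, CAT2, carnitine acetyltransferase, at 13.81 on hsp30Δ against 10.53 on BY4741, and POX1, acyl-CoA oxidase, at 9.39 on hsp30Δ against 6.11 on BY4741. ANT1, the peroxisomal ATP carrier, and PEX11, which divides peroxisomes, were lower, with differences of -1.97 and -1.55. Respiration differed by less: 36 of 37 genes for the respiratory complexes and ATP synthase were higher by some amount (median 0.64), against 53.5% of all genes. Only 7 (18.9%) were higher by 2-fold, under the 23.2% of all genes. NDE2, an external NADH dehydrogenase, was at 12.97 on hsp30Δ against 10.18 on BY4741 and CYC7, the minor cytochrome c, at 15.48 on hsp30Δ against 13.43 on BY4741. At 40 °C 35 of the 37 were lower (median -0.37). The TCA cycle list had 5 of 21 genes higher, 23.8% and so near the 23.2% of all genes, and 1 lower (median 0.43). CIT3, the mitochondrial methylcitrate synthase, was at 7.89 on hsp30Δ against 4.61 on BY4741 (CIT3 was 2-fold or more higher under every scaling, with a difference from 1.75 to 3.28), and MAE1, malic enzyme, was lower at 9.53 on hsp30Δ against 13.04 on BY4741.

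Glucose transporters differed by member. HXT1, the low-affinity transporter used at high glucose, was at 5.98 on the hsp30Δ-labelled array, against 10.02 on BY4741 (16.5-fold lower), and HXT2, a transporter of higher affinity, at 9.89 on hsp30Δ against 13.71 on BY4741 (14.1-fold lower). The galactose permease gene GAL2 was higher, at 8.52 on hsp30Δ against 4.20 on BY4741, as were HXT11 (9.98 on hsp30Δ against 5.43 on BY4741) and HXT9 (9.07 on hsp30Δ against 2.88 on BY4741, from a probe set with shared sequence, a difference of 6.19, or 4.41 from the probe set without it). HXT10 was at 7.63 on the hsp30Δ-labelled array and at 2.55 on BY4741, which is under 2.84, so it has no fold. In all, 10 of 19 transporter and sensor genes were higher by 2-fold or more and 3 lower (median 1.37, or 0.77 after lowess centring). Of 23 genes of glycolysis and fermentation 6 (26.1%) were lower by 2-fold or more, where 21.4% of all genes were, and 1 was higher (median -0.40). HXK2, the main hexokinase, was at 13.30 on hsp30Δ against 14.77 on BY4741 and PFK2, of phosphofructokinase, at 14.07 on hsp30Δ against 15.27 on BY4741, while PYK2, the glucose-repressed pyruvate kinase, was at 14.07 on hsp30Δ against 13.05 on BY4741.

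Regulators of these pathways were also measured. In the list of Snf1 kinase and glucose derepression 8 of 21 genes (38.1%) were higher by 2-fold or more and 1 (4.76%) lower (median 0.74). Over all genes 23.2% were higher and 21.4% lower. NRG1, a repressor of glucose-repressed genes, was at 14.06 on the hsp30Δ-labelled array, against 10.87 on BY4741, and ADR1, an activator of alcohol and fatty acid use, at 13.35 on hsp30Δ against 10.73 on BY4741. MIG2, another repressor, was the lower one, at 7.77 on hsp30Δ against 8.86 on BY4741, and it was at 9.33 on hsp30Δ against 5.57 on BY4741 on the 40 °C pair. Of 16 Ras and protein kinase A genes 7 (43.8%) were higher and 2 (12.5%) lower (median 0.50). RAS1 was at 8.60 on hsp30Δ against 10.75 on BY4741 and TPK3, a catalytic subunit, at 9.35 on hsp30Δ against 10.66 on BY4741. RIM15, a kinase that protein kinase A holds back, was higher, at 11.72 on hsp30Δ against 9.95 on BY4741.

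**Figure D3:**
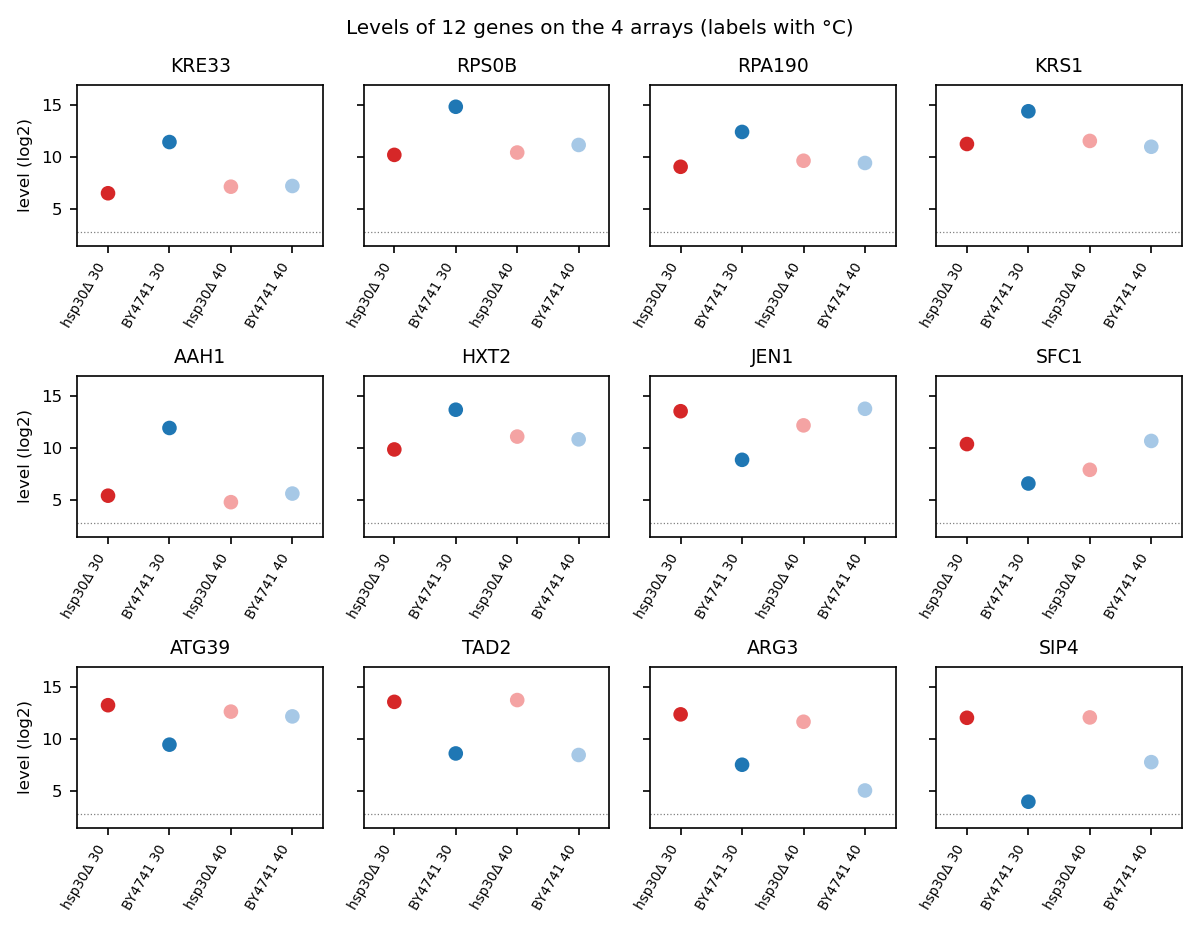
Level (log2, y axis from 1.5) of 12 genes on the arrays labelled hsp30Δ 30 °C (red), BY4741 30 °C (blue), hsp30Δ 40 °C (pale red) and BY4741 40 °C (pale blue), 1 array each, with the highest fission yeast probe set (2.84) as a dotted line. KRE33, RPS0B, RPA190, KRS1, AAH1 and HXT2 are high on BY4741 30 °C and lower on the other 3 arrays, ATG39 is low on BY4741 30 °C and higher on the other 3, and TAD2, ARG3 and SIP4 are higher on both arrays labelled hsp30Δ.

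Storage carbohydrate genes were higher. All 16 glycogen genes were higher on the hsp30Δ-labelled array, and 10 passed 2-fold (median 1.30, and 0.01 at 40 °C). SGA1, the glucoamylase known from sporulating cells, was at 13.25 on hsp30Δ against 9.24 on BY4741 (16.1-fold), GIP2, a targeting subunit of the phosphatase Glc7, at 13.11 on hsp30Δ against 9.95 on BY4741 and GLG1, glycogenin, at 13.88 on hsp30Δ against 11.46 on BY4741. Of 10 trehalose genes 4 were higher by 2-fold or more and 1 lower (median 0.83). ATH1, acid trehalase, was at 13.94 on hsp30Δ against 11.70 on BY4741, and PGM1, the minor phosphoglucomutase, was lower, at 8.50 on hsp30Δ against 11.60 on BY4741. General stress genes of the type driven by Msn2 and Msn4 were higher in 29 of 30 cases, 12 at least 2-fold (median 0.88), against 53.5% higher and a median of 0.11 over all genes. MOH1, a gene of stationary phase, was at 12.10 on the hsp30Δ-labelled array, against 7.98 on BY4741 (17.3-fold), and SIP18, known from desiccation, at 14.04 on hsp30Δ against 11.73 on BY4741. The median of this list at 40 °C was -0.10. Among 21 stress transcription factors 10 were higher by 2-fold or more and 0 lower (median 0.97). YAP5, an iron-responsive factor, was at 12.18 on hsp30Δ against 9.16 on BY4741 and XBP1, a repressor known from stress and quiescence, at 12.74 on hsp30Δ against 10.49 on BY4741.

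Autophagy genes were higher. Of 36, 15 (41.7%) were higher by 2-fold or more and 1 (2.78%) lower, against 23.2% and 21.4% of all genes. The median was 0.87 at 30 °C and -0.19 at 40 °C. ATG39, the receptor for eating parts of the nucleus, was at 13.28 on the hsp30Δ-labelled array, against 9.48 on BY4741 (13.9-fold), ATG1, the starting kinase, at 12.51 on hsp30Δ against 9.66 on BY4741 and ATG32, the mitochondrial receptor, at 12.05 on hsp30Δ against 9.71 on BY4741. ATG5, of the conjugation machinery, was lower, at 9.79 on hsp30Δ against 11.40 on BY4741. Proteasome genes differed by less: 1 of 36 was higher by 2-fold or more and 0 lower, with a median of -0.11 that changed sign after quantile normalization (0.01). The single one was RPN4, which codes for the activator of proteasome genes, at 15.09 on hsp30Δ against 13.05 on BY4741. The ubiquitin list had 3 of 28 (10.7%) higher by 2-fold or more, under the 23.2% of all genes, and 0 lower (median 0.17). UFD1, a Cdc48 partner, was among the higher ones, at 12.31 on hsp30Δ against 10.56 on BY4741.

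Chaperone genes went both ways. Genes of the Hsp70 system of the ribosome were among the lower ones: SSB2 was at 12.36 on the hsp30Δ-labelled array, against 14.94 on BY4741, its copy SSB1 at 13.52 on hsp30Δ against 15.52 on BY4741 (with a difference of -3.36 from its probe set without shared sequence), the co-chaperone gene ZUO1 at 12.36 on hsp30Δ against 14.75 on BY4741 and SSZ1 at 11.95 on hsp30Δ against 14.02 on BY4741. The stress-induced Hsp70 gene SSA3 was higher, at 15.57 on hsp30Δ against 11.23 on BY4741 (20.2-fold), and APJ1, an Hsp40, at 15.39 on hsp30Δ against 12.93 on BY4741. Over 18 cytosolic Hsp70s, Hsp40s and exchange factors 3 were higher by 2-fold or more and 5 lower (median 0.31), or 16.7% and 27.8%, where all genes had 23.2% and 21.4%. The Hsp90 list had 2 of 14 (14.3%) higher and 3 (21.4%) lower (median 0.13), so it did not stand out from the 23.2% and 21.4% of all genes. Its activators AHA1 and HCH1 were higher, at 15.20 on hsp30Δ against 13.56 on BY4741 and 15.13 on hsp30Δ against 13.83 on BY4741, and PPT1, the Hsp90 phosphatase, was 58.2-fold lower, at 4.68 on hsp30Δ against 10.54 on BY4741. Of 9 genes for disaggregation, small heat shock proteins and aggregate sorting 4 were higher by 2-fold or more and 0 lower (median 0.54), with CUR1, a sorting factor, at 14.61 on hsp30Δ against 10.67 on BY4741 and HSP78, the mitochondrial disaggregase, at 15.73 on hsp30Δ against 14.48 on BY4741. In the ER list 5 of 20 genes were lower, 25% and so near the share over all genes, and 1 was higher (median -0.46). LHS1, an Hsp70 of the ER, was at 9.16 on hsp30Δ against 11.72 on BY4741 and SEC63, of the translocation channel, at 10.53 on hsp30Δ against 12.68 on BY4741, while ERO1, the oxidase for disulfide formation, was at 14.97 on hsp30Δ against 12.87 on BY4741. Of 14 mitochondrial chaperone and protease genes 2 (14.3%) were higher and 1 (7.14%) lower (median 0.21), both under the shares over all genes. The Hsp40 gene MDJ1 was at 15.22 on hsp30Δ against 13.22 on BY4741. CUR1, AHA1, HCH1, APJ1, MDJ1 and ERO1 were higher by 2-fold or more on the hsp30Δ-labelled 40 °C array too, by 3.64, 1.83, 1.91, 1.64, 1.20 and 2.79 log2 units.

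Of 18 thioredoxins, peroxiredoxins, catalases and superoxide dismutases 3 (16.7%) were higher by 2-fold or more and 2 (11.1%) lower (median 0.35), both under the shares over all genes, 23.2% and 21.4%. Of 24 glutathione genes 8 (33.3%) were higher and 4 (16.7%) lower (median 0.23). SRX1, sulfiredoxin, was at 12.01 on hsp30Δ against 7.94 on BY4741 (16.8-fold higher), and TRX1, a cytosolic thioredoxin, at 12.50 on hsp30Δ against 14.45 on BY4741. In the aryl-alcohol dehydrogenase family 4 of 5 genes were higher (median 1.29), with AAD10 at 14.17 on hsp30Δ against 11.18 on BY4741.

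Amino acid genes lay on both sides. Synthesis of aromatic, branched-chain and other amino acids was lower: 12 of 17 aromatic genes were lower by 2-fold or more and 0 higher (median -1.44), 7 of 14 branched-chain genes lower and 1 higher (median -1.09), and 15 of 22 lysine, histidine and threonine genes lower and 1 higher (median -1.83). Those 15 include HIS3 (a difference of -2.41), for which both strains carry the his3Δ1 allele, so it is not a reading of an intact gene. ARO4, which starts the aromatic pathway, was at 8.05 on the hsp30Δ-labelled array, against 13.59 on BY4741 (46.3-fold lower). LEU9, an isopropylmalate synthase, was at 8.61 on hsp30Δ against 11.88 on BY4741, HIS7, of histidine synthesis, at 7.56 on hsp30Δ against 11.50 on BY4741 and LYS12, of lysine synthesis, at 11.01 on hsp30Δ against 13.94 on BY4741. The higher branched-chain member was BAP2, a permease, at 13.89 on hsp30Δ against 12.54 on BY4741. At 40 °C the medians of these 3 lists were 0.32, 0.15 and 0.09.

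Sulfur genes were higher. In the list of sulfate assimilation, methionine and cysteine 19 of 34 genes (55.9%) were higher by 2-fold or more and 3 (8.82%) lower, against 23.2% and 21.4% of all genes. The list median was 1.38, or 0.60 after quantile normalization. MET28, a transcription factor of the pathway, was at 12.04 on the hsp30Δ-labelled array, against 7.45 on BY4741 (24.1-fold), MET2, which activates homoserine, at 12.19 on hsp30Δ against 8.21 on BY4741 and MUP3, a methionine permease, at 12.70 on hsp30Δ against 8.70 on BY4741. SAM1, which makes S-adenosylmethionine, and SAH1, which clears its product, were lower, at 10.60 on hsp30Δ against 12.93 on BY4741 and 12.34 on hsp30Δ against 14.65 on BY4741. Arginine genes were mixed, 7 of 18 (38.9%) higher and 2 (11.1%) lower (median 0.56). ARG3, ornithine carbamoyltransferase, was at 12.40 on hsp30Δ against 7.55 on BY4741 and CPA1, of carbamoyl phosphate synthesis, at 14.64 on hsp30Δ against 11.90 on BY4741, while ARG4, the last enzyme of the pathway, was lower, at 11.43 on hsp30Δ against 13.04 on BY4741. ARG3 and CPA1 kept their direction on the 40 °C pair, at 11.69 on hsp30Δ against 5.08 on BY4741 and 13.51 on hsp30Δ against 11.43 on BY4741. Of 29 genes under nitrogen catabolite repression, which a good nitrogen source holds low, 15 (51.7%) were higher and 3 (10.3%) lower (median 1.06). PUT4, the proline permease, was at 11.32 on hsp30Δ against 8.40 on BY4741 and GAT1, a GATA activator, at 12.18 on hsp30Δ against 10.57 on BY4741. GDH1, the main glutamate dehydrogenase for ammonium, was at 12.48 on hsp30Δ against 14.70 on BY4741.

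Ergosterol and fatty acid synthesis lists had more lower than higher genes. Of 32 ergosterol genes 16 were lower by 2-fold or more and 6 higher (median -0.93). ERG10, the first enzyme, was at 11.23 on the hsp30Δ-labelled array, against 14.10 on BY4741, and ERG11, the azole target, at 12.25 on hsp30Δ against 14.22 on BY4741. The higher members included the sterol regulator gene ECM22 (12.45 on hsp30Δ against 10.46 on BY4741), PDR11, a sterol importer (11.55 on hsp30Δ against 8.49 on BY4741), and the sterol esterification enzyme genes ARE1 and ARE2, with differences of 1.03 and 1.19. ERG7, ERG28 and HMG2, of the pathway itself, were not lower, with differences of 0.10, 0.019 and 0.42. Of 16 genes of fatty acid synthesis 7 were lower and 1 higher (median -0.91), with ELO2, an elongase, at 8.53 on hsp30Δ against 12.02 on BY4741 and OLE1, the desaturase, at 12.62 on hsp30Δ against 14.21 on BY4741. SPT23, an activator of OLE1, was the higher one, at 13.28 on hsp30Δ against 11.64 on BY4741. Of 26 sphingolipid genes 3 (11.5%) were higher by 2-fold or more and 4 (15.4%) lower, both under the shares over all genes, with a median of 0.12 that was -0.06 after lowess centring.

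Hsp30 and Pma1 share the plasma membrane. PMA1 was at 14.04 on the hsp30Δ-labelled array, against 14.94 on BY4741, a difference of -0.91, and at 14.46 on hsp30Δ against 13.87 on BY4741 on the 40 °C pair, a difference of 0.59. In the list of the proton pump, its regulators and ion transport 5 of 19 genes (26.3%) were higher by 2-fold or more, near the 23.2% of all genes, and 2 lower (median 0.22). Of these 5, ENA5 had a difference of 1.91 from a probe set with shared sequence, and of -0.067 from the probe set without it. PTK2, a kinase that activates Pma1, was at 14.21 on hsp30Δ against 12.36 on BY4741 and TRK2, a potassium transporter, at 12.46 on hsp30Δ against 10.30 on BY4741, while AST1, which helps Pma1 reach the membrane, was lower, at 10.15 on hsp30Δ against 11.78 on BY4741. The relatives of HSP30, MRH1 and YRO2, were at 14.79 on hsp30Δ against 15.08 on BY4741 and 15.21 on hsp30Δ against 14.50 on BY4741. With the eisosome, the furrow of the membrane that houses many transporters, that list had 8 of 18 genes higher and 1 lower (median 0.97). PKH2, a kinase of the eisosome, was at 12.14 on hsp30Δ against 10.03 on BY4741 and FHN1, an eisosome membrane protein, at 9.31 on hsp30Δ against 7.56 on BY4741. The vacuolar proton pump was lower: 12 of 20 genes were lower by 2-fold or more and 0 higher, with a median of -1.43 at 30 °C and -0.36 at 40 °C. Its subunit genes VMA2 and VMA5 were at 13.28 on hsp30Δ against 15.16 on BY4741 and 11.81 on hsp30Δ against 13.91 on BY4741. STV1, the subunit of the Golgi form, was at 12.14 on hsp30Δ against 11.81 on BY4741.

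The list of weak acid and multidrug transporters also holds genes that code for no exporter, among them the regulators HAA1, WAR1, PDR1 and PDR3. Of its 21 genes 10 (47.6%) were higher by 2-fold or more and 1 (4.76%) lower (median 0.99), against 23.2% and 21.4% of all genes. This list was also above the all-gene median at 40 °C (0.50, 6 genes higher and 0 lower), where 6.7% of all genes were higher. RSB1, an exporter of sphingoid bases, was at 14.09 on the hsp30Δ-labelled array, against 10.23 on BY4741 (14.6-fold), HAA1, an activator of weak acid genes, at 13.44 on hsp30Δ against 10.93 on BY4741 and TPO1, a polyamine exporter, at 14.88 on hsp30Δ against 12.85 on BY4741. At 40 °C RSB1, HAA1 and TPO1 were higher by 1.60, 1.49 and 1.47 log2 units.

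Iron genes were higher by 2-fold in 17 of 27 cases (63.0%) and lower in 1 (3.70%), against 23.2% and 21.4% of all genes (median 1.30). The ferric reductase genes FRE3 and FRE4 were at 10.29 on hsp30Δ against 7.42 on BY4741 and 7.46 on hsp30Δ against 2.97 on BY4741, and ARN2, a siderophore transporter, at 12.18 on hsp30Δ against 9.54 on BY4741. FRE1, the main surface reductase, was lower, at 11.80 on hsp30Δ against 13.11 on BY4741. Of 25 phosphate genes 5 (20%) were higher and 7 (28%) lower (median -0.32), near the 23.2% and 21.4% of all genes. PHO84, the main phosphate transporter, was at 12.76 on hsp30Δ against 14.81 on BY4741, while PHM8, a phosphatase, was at 13.95 on hsp30Δ against 11.38 on BY4741 and, on the 40 °C pair, at 13.83 on hsp30Δ against 11.08 on BY4741. Hypoxic and anaerobic genes had 11 of 25 (44%) higher and 3 (12%) lower, against the same shares over all genes (median 0.53). At 40 °C their median was 0.67 with 8 higher, where 6.7% of all genes were. OYE3, an old yellow enzyme, was at 12.83 on hsp30Δ against 8.06 on BY4741 and TIR4, a cell wall mannoprotein, at 11.88 on hsp30Δ against 8.05 on BY4741. Of 26 genes of glycerol metabolism and the Hog1 pathway 9 (34.6%) were higher and 5 (19.2%) lower (median 0.67), the lower share near the 21.4% of all genes. GUT1, glycerol kinase, was at 13.66 on hsp30Δ against 11.19 on BY4741, and GPP1, which makes glycerol, was 14.2-fold lower, at 11.30 on hsp30Δ against 15.13 on BY4741.

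Of 24 cyclins and mitotic regulators 3 (12.5%) were higher by 2-fold or more and 5 (20.8%) lower (median -0.46), against 23.2% and 21.4% of all genes. CLB6, an S-phase cyclin, was at 5.30 on the hsp30Δ-labelled array, against 8.15 on BY4741, FAR1, the arrest factor of the pheromone response, at 10.02 on hsp30Δ against 13.22 on BY4741, and WHI5, an inhibitor of the start of the cycle, was higher, at 11.72 on hsp30Δ against 10.10 on BY4741. None of the 10 histone genes differed by 2-fold, and their median was 0.04. Of 25 a-specific and pheromone genes 4 were higher and 9 lower (median -0.79), with AGA1, an agglutinin anchor, at 10.93 on hsp30Δ against 13.10 on BY4741. The 4 alpha-specific genes had a median of 0.63, which was -0.67 after quantile normalization and -0.37 after lowess centring. Of 43 cell wall genes 9 (20.9%) were higher and 11 (25.6%) lower (median -0.12), again near the shares over all genes. UTR2, a crosslinking transglycosylase, was at 8.98 on hsp30Δ against 13.03 on BY4741 and SCW10, a glucanase-like wall protein, at 10.66 on hsp30Δ against 13.50 on BY4741, while MTL1, a wall stress sensor, was at 13.29 on hsp30Δ against 10.78 on BY4741. UTR2 was on the other side at 40 °C, at 10.64 on hsp30Δ against 9.31 on BY4741.

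Meiosis and spore wall genes, which growing haploid cells keep low, were higher in 48 of 63 cases by 2-fold and lower in 1 (median 1.54), or 1.08 after either quantile normalization (32 higher) or lowess centring (33 higher). Their median level was 8.07 on the hsp30Δ-labelled array, against 6.11 on BY4741. Of the 63, 12 were no brighter than 2.84 on at least 1 of these arrays. The spore wall genes OSW1 and LDS1 were at 10.25 and 9.67 on the hsp30Δ-labelled array, and at 2.16 and 2.82 on BY4741, where they gave no signal above fission yeast probes. LDS2, another spore wall gene, was at 10.10 on hsp30Δ against 4.49 on BY4741 and CDA1, a chitin deacetylase, at 9.35 on hsp30Δ against 4.49 on BY4741. The list was higher at 40 °C too but by less (median 0.44), 12 genes higher by 2-fold or more and 1 lower.

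Among single genes, the 20 highest differences of genes readable on both arrays ran from 5.31 (ICS3) to 8.07 (SIP4). They include the transcription factor gene ZNF1 (13.35 on hsp30Δ against 7.82 on BY4741), known for respiratory growth, ECM8 (10.31 on hsp30Δ against 4.48 on BY4741) and the fatty acid transport gene FAT3 (12.21 on hsp30Δ against 6.40 on BY4741). A further 9 of them have a systematic name alone, such as YOR032W-A (10.95 on hsp30Δ against 3.86 on BY4741), YPR015C (12.97 on hsp30Δ against 6.05 on BY4741) and YOR186W (13.55 on hsp30Δ against 6.82 on BY4741). Besides OSW1 and LDS1, genes at or under 2.84 on BY4741 but bright on the hsp30Δ-labelled array were YAL064W (9.75), YML054C-A (9.67), YDL114W (9.62), ECM12 (9.51), YBR182C-A (9.46), RRT5 (8.73), YBL008W-A (8.47) and YIL046W-A (8.25). The 20 lowest ran from -7.02 (YVH1) to -4.55 (RPS9B). Of these, RRB1, which escorts ribosomal protein L3, was at 7.38 on hsp30Δ against 12.27 on BY4741, and DBP9, an RNA helicase of 60S assembly, at 6.97 on hsp30Δ against 11.82 on BY4741.

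Short reading frames and chromosome-end genes had larger shares of higher genes. Among 135 genes known only by a systematic name with a letter suffix, mostly short reading frames, 70 (51.9%) were higher by 2-fold or more and 9 (6.67%) lower, with a median of 1.18 and median levels of 7.87 on the hsp30Δ-labelled array and 5.32 on BY4741. Among 231 genes within the first 10 from a chromosome end, 96 (41.6%) were higher and 25 (10.8%) lower (median 0.72), while the other 5196 placed genes had 22.4% higher, 21.8% lower and a median of 0.08. Chromosome-end genes had a median signal of 9.81 on the hsp30Δ-labelled array and 8.91 on BY4741, under the medians of all genes (11.25 and 11.20), so the shares were also read within levels. In the bottom quartile of mean level 49.2% of 120 end genes were higher and 9.17% lower, against 26.9% and 29.4% of 1237 others. Above that quartile 33.3% of 111 end genes were higher and 12.6% lower, against 830 and 771 of 3959 others. At 40 °C the median of the end genes was 0.17. Of 11 measured neighbours of HSP30 on its chromosome, 1 was higher by 2-fold or more and 3 were lower (median -0.19). HTL1, a remodelling complex subunit, was at 5.77 on the hsp30Δ-labelled array, against 7.90 on BY4741, and ATG15, a vacuolar lipase, at 11.23 on hsp30Δ against 8.87 on BY4741.

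**Figure D4:**
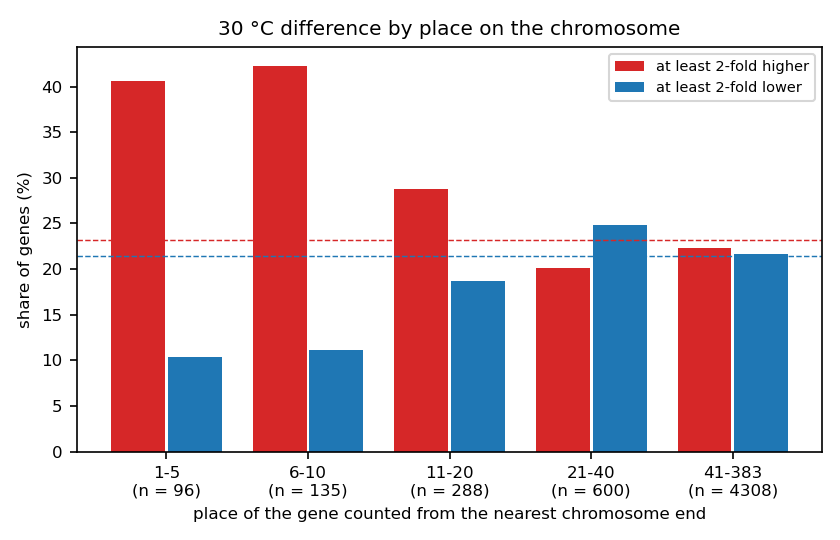
Share of genes (%, y axis) higher by 2-fold or more (red) and lower (blue) on the hsp30Δ-labelled 30 °C array than on BY4741 30 °C, by the gene's place counted from the nearest chromosome end in the reference annotation (x axis, number of genes below each pair of bars), with dashed lines at the shares over all genes (23.2% and 21.4%). The higher share is 40.6% and 42.2% in the first groups, 28.8% in the group from 11 to 20, and 20.2% and 22.3% further in.

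The 40 °C pair shows which strain differences recur on separate arrays. Of the 1262 genes higher by 2-fold or more at 30 °C, 239 (18.9%) were higher by 2-fold or more at 40 °C too, where 6.7% of all genes were, and 905 (71.7%) were higher by any amount. Of the 1160 lower genes 57 (4.91%) were lower by 2-fold at 40 °C, where 3.59% of all genes were, and 698 (60.2%) by any amount. The shares by any amount stand beside a 40 °C median over all genes of 0.00, near an even split. The count of 57 depended on the scaling: after quantile normalization 118 genes were lower by 2-fold at both temperatures, 9.8% of the 1204 lower at 30 °C, where 5.16% of all genes were lower at 40 °C. The genes higher at both were then 206, or 17.2% of 1197. Both together are 4.4% and 1.05% of all genes. Read from the other side, the 239 genes are 65.7% of those higher at 40 °C and the 57 are 29.2% of those lower. Recurrence grew with size: of 207 genes higher by 8-fold or more at 30 °C 99 (47.8%) were 2-fold higher at 40 °C, and of 95 higher by 16-fold or more 53 (55.8%), while of 157 lower by 8-fold or more 12 (7.64%) and of 53 lower by 16-fold or more 8 (15.1%) were 2-fold lower. Opposite by 2-fold at both were 37 genes higher at 30 °C and lower at 40 °C (0.681%) and 22 the reverse (0.405%). Over all 5430 genes the Pearson r of the strain differences was 0.36 and the Spearman rho 0.28, across genes, which are not independent replicates, and 58.9% had the same sign.

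**Figure D5:**
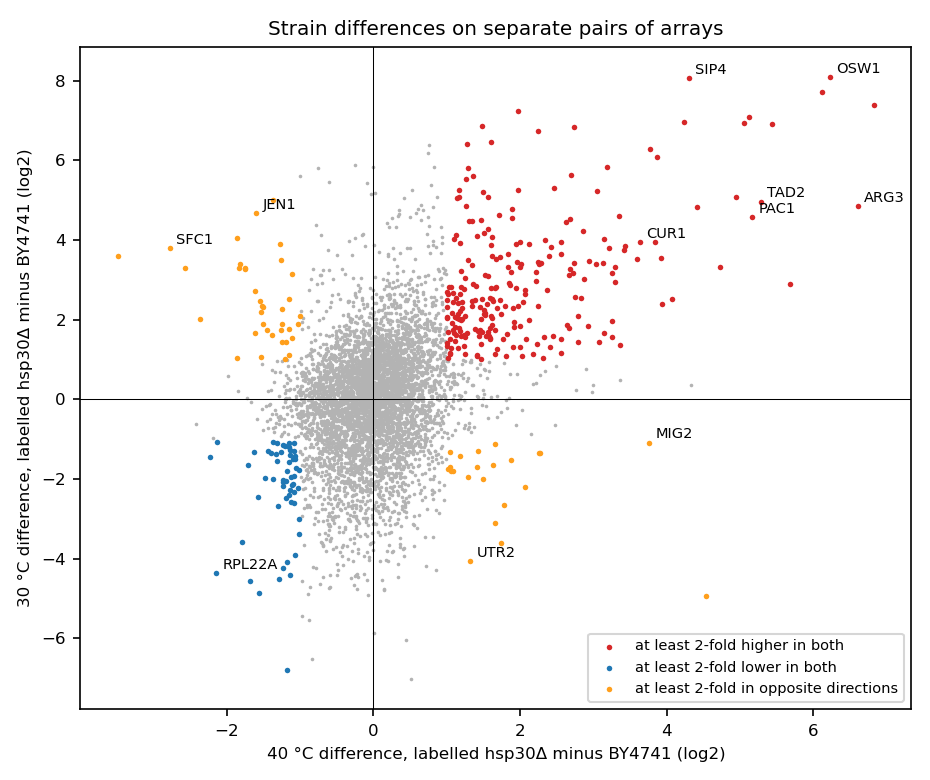
Strain difference of each gene (labelled hsp30Δ minus BY4741, log2) at 40 °C (x axis) and at 30 °C (y axis), from pairs that share no array. Red points are higher by 2-fold or more at both temperatures (239 genes), blue points lower at both (57 with the deposited values, 118 after quantile normalization) and orange points opposite (37 and 22). SIP4, OSW1, ARG3, TAD2 and PAC1 lie far up and to the right, RPL22A down and to the left, and JEN1 and SFC1 up and to the left.

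TAD2, ARG3 and PAC1 were among the genes higher by a large amount at both temperatures, ARG3 by 4.85 log2 units at 30 °C and 6.61 at 40 °C. TAD2 was at 13.77 on the hsp30Δ-labelled 40 °C array, against 8.49 on BY4741 40 °C, close to its 30 °C levels. PAC1, of the dynein pathway, was at 13.03 on hsp30Δ against 8.44 on BY4741 at 30 °C and 12.68 on hsp30Δ against 7.51 on BY4741 at 40 °C. SIP4 was at 12.10 on hsp30Δ against 7.80 on BY4741 at 40 °C, so BY4741 40 °C lay between. YDR246W-A, a short reading frame, was at 11.46 on hsp30Δ against 6.38 on BY4741 at 30 °C and 11.22 on hsp30Δ against 6.28 on BY4741 at 40 °C. On the lower side RPL22A was at 8.91 on hsp30Δ against 11.05 on BY4741 at 40 °C, REI1, a late 60S factor, at 5.78 on hsp30Δ against 9.37 on BY4741 at 30 °C and 5.79 on hsp30Δ against 7.58 on BY4741 at 40 °C, and BOL3, of mitochondrial iron-sulfur assembly, at 8.74 on hsp30Δ against 10.39 on BY4741 and 8.53 on hsp30Δ against 10.24 on BY4741. EMC5, of the ER membrane insertion complex, and the mediator gene SRB7 were lower at both temperatures by 1.36 and 1.39, and by 1.99 and 1.37 log2 units.

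Some recurring genes were neighbours. At least 4-fold higher at both temperatures were 70 genes, and among 4987 adjacent pairs in the reference order with both genes measured, 7 pairs had both members in that set. They were SIP4 and ARG3, YOR268C and PAC1, YOR302W and CPA1, SMP1 and YBR182C-A, PRM7 and BSC1, YOR008C-A and TIR4, and YBL071C-B and KTI11. None of the 7 pairs overlap in the reference annotation. Beside ARG3 and PAC1, the partners were far higher as well: SIP4 by 8.07 log2 units at 30 °C and 4.30 at 40 °C, and YOR268C by 6.08 and 3.86. YOR302W, which lies next to CPA1, was higher by 3.96 and 2.56, and CPA1 by 2.74 and 2.08. Whether the members of a pair, such as YOR302W and CPA1, are read from separate transcripts was not checked, so a pair may not be independent readings.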

How the data were processed

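Total RNA of 4 yeast cultures was hybridised to Affymetrix expression arrays, 1 array in each group, per the labels' protocols. The deposited table holds the authors' log2 values for 5802 probe sets, made with GCRMA and MAS5 per the submitters' processing notes, with no versions, roles or order given; a genome build is not given in the sources used here, so no coordinates are printed. The values were used with no further scaling. The table has 0 columns of other samples. The probe annotation names 5515 probe sets, 5483 for budding yeast and 32 for fission yeast, and 287 have no name. Symbols and gene order were taken from the RefSeq gene table. Of 5436 genes, 45 had several probe sets (16 of these differ by over 1 log2 unit at 30 °C), and the brightest over the 4 arrays was kept.

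Background was 1.96, the level that 95% of fission yeast probe sets stay under (median over arrays). Lower values were raised to it, and genes above it on no array were left out (6 genes). The number of arrays limits the precision: with 1 a side no test can be made, so genes past 2-fold were counted, and lists are described by counts and medians. The members and the 58 gene lists were chosen with earlier results of these data known. Named genes were the 20 highest and 20 lowest differences readable on both arrays, 10 genes readable on only 1, the 15 highest and 10 lowest shared by both temperatures, up to 6 members of each list with the largest difference, and up to 2 against the list's median, besides the strain's deleted genes, PMA1 and the mating markers. RPL15B, RPS12, RPS23A, RPS30A, RPA14, ARE1, ARE2, ERG7, ERG28, HMG2, MRH1, YRO2 and the neighbours SMP1, PRM7, BSC1, YOR008C-A, YBL071C-B, KTI11 and YOR302W were named after their values were seen.

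The 9 alternatives were quantile, median and lowess scaling (fraction 0.4), the mean of probe sets or only those without a suffix, no floor, a floor at 2.84, no filter, and genes above 2.84 on both arrays. The counting code was run on simulated data with little noise and with added differences past the 2-fold limit. This checks the code alone, not the spread between cultures. Python 3.11.15 was used with numpy 2.4.6, pandas 2.3.3, statsmodels 0.14.6 and matplotlib 3.10.9.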

Additional observations from a re-analysis of the deposited data

Results flagged for a closer look

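For 13 named genes the strain difference ran at least 2-fold one way at 30 °C and at least 2-fold the other way at 40 °C. The difference between the temperatures was not tested, since each group has 1 array. Higher on the array labelled hsp30Δ at 30 °C and lower at 40 °C were the lactate permease gene JEN1 (4.67 and -1.59 log2 units), the catalase gene CTA1 (3.90 and -1.27), the carrier gene SFC1 (3.79 and -2.77), CIT3 (3.28 and -1.75), the carnitine acetyltransferase gene YAT2 (3.14 and -1.10), SIP18 (2.31 and -1.50), the glutamate dehydrogenase gene GDH3 (2.27 and -1.24), PAI3 (1.62 and -1.38) and, with the deposited values, the glutathione transferase gene GTO3 (1.74 and -1.26). GTO3 was at -0.26 and -2.19 after quantile normalization, lower at both temperatures, and at 0.45 and -1.40 after lowess centring. The reverse held for the wall genes UTR2 (-4.05 and 1.32), CWP1 (-1.80 and 1.07) and GAS1 (-1.75 and 1.02) and the repressor gene MIG2 (-1.09 and 3.76). GAS1 at 40 °C was 0.99 after median centring, just under 2-fold. The other 11 genes were opposite by 2-fold under each of the 3 other scalings. The gluconeogenesis, glyoxylate cycle and lactate uptake list had medians of 2.62 at 30 °C and -0.59 at 40 °C, also not tested.

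The 287 probe sets with no gene name enter no comparison. Of these, 210 read above the highest fission yeast probe set on both 30 °C arrays. Of all 287, 65 (22.6%) were at least 2-fold higher on the array labelled hsp30Δ 30 °C, near the 23.2% of all genes. A further 34 (11.8%) were lower, under the 21.4% of all genes.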

How the results depend on the processing

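Over the 9 alternatives the number of genes at least 2-fold higher on the array labelled hsp30Δ 30 °C ran from 1164 to 1262 and the number lower from 1148 to 1258. The number at least 2-fold higher at both temperatures ran from 200 to 240. The number lower at both was 57 as reported and 118 after quantile normalization; the cause was not tested. Of 419 named genes with a difference, 52 moved by more than 1.5-fold after quantile normalization and 42 after lowess centring, and 1 changed sign under a scaling: GTO3 was -0.26 after quantile normalization. ENA5 was -0.067 when only probe sets without a suffix were read, a change that comes from another probe set. Of 58 list medians, 2 moved by more than 1.5-fold under quantile normalization (sulfate assimilation 0.60, alpha-specific genes -0.67), 2 under lowess centring (hexose transporters 0.77, alpha-specific genes -0.37) and 1 with no filter on dim genes (the genes deleted in the parent, -1.21, because MET17 then counts). Where the brightest probe set of a gene was chosen, PAU23 and YBR219C had other probe sets past 2-fold in the opposite direction. No paired analysis was possible because each group holds 1 array, and no array could be left out of a group. Signal near the fission yeast level leaves the size of differences for dim genes inexact.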
